A study of Homo sapiens with 4 samples.

Results

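In H1 human embryonic stem cells (hESC) treated with BMP4, 1272 of the 18456 GATA3 ChIP-seq positions of replicate 1 had their nearest replicate 2 position more than 100 bp and at most 500 bp away. These displaced loci were selected on the distance between the replicate positions, and they made up 6.89% of replicate 1 (95% interval 6.54 to 7.27%). Of the other positions, 9145 (49.6%) lay within 100 bp of a replicate 2 position and are called close pairs, and 8039 (43.6%) had no replicate 2 position within 500 bp and are called unpartnered. The question asked was whether the displaced loci were composite sites, that is, loci with several GATA motifs, and the close pairs served as the comparison.

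H1 is an established pluripotent line, and all samples were grown in mTeSR1 on Matrigel with BMP4 at 50 ng/ml for 6 h. The study held 2 GATA3 ChIP replicates, made with an antibody to GATA3 from formaldehyde-fixed chromatin sheared to fragments of 100 to 400 bp, and 2 input samples of the same cells. Only the 2 lists of peak positions were analysed here, with 18456 positions for replicate 1 and 12782 for replicate 2 on the 24 chromosomes 1 to 22, X and Y. The study's methods call the replicates biological, and an untreated group was not analysed here. The lists give no width, height or q-value of a peak, so the depth behind a position is unknown and every p below compares regions of these 2 libraries, not conditions.

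GATA3 is a zinc finger transcription factor that binds the short sequence WGATAR, in which W is A or T and R is A or G. It is induced early by BMP signalling in hESC and is known for its roles in trophoblast, amnion and early mesoderm programmes. GATA factors often occupy regulatory elements in which several such motifs lie close together. WGATAR has 4 forms, of which AGATAA is the most frequent at close pairs. Both strands were searched, so that the form AGATAA on the minus strand reads TTATCT on the plus strand.

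Sequences of 2 displaced loci with a WGATAR within 50 bp of each position are shown first, because they are the arrangement a composite site would have. They were taken from the 4 such loci nearest to the start of a listed developmental gene, at most 250 bp displaced, and are printed from hg38 on the plus strand with each WGATAR in capitals. The SPRY2 locus is chr13:80344972-80345234 and the TBX3 locus is chr12:114746461-114746655.
SPRY2: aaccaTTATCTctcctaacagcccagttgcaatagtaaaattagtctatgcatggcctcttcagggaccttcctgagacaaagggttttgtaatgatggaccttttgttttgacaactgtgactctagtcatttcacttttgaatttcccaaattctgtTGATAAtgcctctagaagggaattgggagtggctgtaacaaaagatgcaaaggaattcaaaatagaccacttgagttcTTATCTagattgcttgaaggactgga
TBX3: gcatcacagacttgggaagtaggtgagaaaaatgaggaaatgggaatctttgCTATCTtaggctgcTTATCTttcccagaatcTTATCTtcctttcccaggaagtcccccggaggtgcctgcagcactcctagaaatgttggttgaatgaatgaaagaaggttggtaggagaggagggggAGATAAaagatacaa
At SPRY2, an inhibitor of FGF receptor signalling, the locus lay 3.98 kb upstream of the transcription start site (TSS). The replicate 1 position (80345209) was 2.5 bp from the centre of a TTATCT, the replicate 2 position (80344997) was 17.5 bp from another, and a TGATAA lay between them. Each position thus had its own match. TBX3 encodes a T-box factor of early mesoderm, and its locus lay 62.4 kb upstream of the TSS. Its replicate 2 side held 3 matches within a short stretch and its replicate 1 side held an AGATAA 13.5 bp from the position.

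Loci without that arrangement are shown for contrast. BMP4, the gene of the ligand used for the treatment, had a displaced locus 24.2 kb upstream of its TSS in intergenic sequence (chr14:53982845-53983094, plus strand), with positions at 53982870 and 53983068.5. TFAP2A, a transcription factor of trophoblast and amnion, had the displaced locus nearest to a listed TSS among those with 0 WGATAR within 300 bp. Its positions were 495 bp apart on the 2 sides of the TSS and are printed as chr6:10419240-10419340 around the replicate 1 position and chr6:10419735-10419835 around the replicate 2 position. This was not a pair in both directions, because another replicate 1 position lay nearer to the replicate 2 position.
BMP4: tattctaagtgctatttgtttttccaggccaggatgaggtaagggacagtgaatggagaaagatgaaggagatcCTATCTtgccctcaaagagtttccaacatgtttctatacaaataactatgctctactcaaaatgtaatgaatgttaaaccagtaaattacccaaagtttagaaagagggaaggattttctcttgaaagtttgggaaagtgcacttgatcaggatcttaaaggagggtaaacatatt
TFAP2A replicate 1: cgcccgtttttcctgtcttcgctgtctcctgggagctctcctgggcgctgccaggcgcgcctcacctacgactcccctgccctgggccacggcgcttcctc
TFAP2A replicate 2: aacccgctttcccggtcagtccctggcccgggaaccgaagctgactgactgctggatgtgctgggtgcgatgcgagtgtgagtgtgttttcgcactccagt
The BMP4 stretch held a single CTATCT between the positions, 51.5 bp from the replicate 1 position and 147 bp from the replicate 2 position, and neither position had a match within 50 bp. Within 300 bp of the midpoint the BMP4 locus held 2 matches, so another lay outside the printed stretch. The TFAP2A stretches held no match.

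The displacement of the 1272 loci ran from 100.5 to 495 bp, with a median of 166 bp and quartiles of 125 and 224 bp, and close pairs had a median distance of 23 bp. The replicate 2 position had the higher coordinate at 633 loci (49.8%, 95% interval 47.0 to 52.5%), so neither direction along the chromosome prevailed. Counts fell without a gap across the lower limit, from 184 close pairs over 90 bp to 141 displaced loci up to 110 bp. The closest values outside the limits were 100 and 501 bp. In bins of equal width, 1272 positions lay over 100 and up to 500 bp from replicate 2, then 201 up to 900 bp and 126 up to 1300 bp. The rule fixed this range, and these values are a description.

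**Figure D1:**
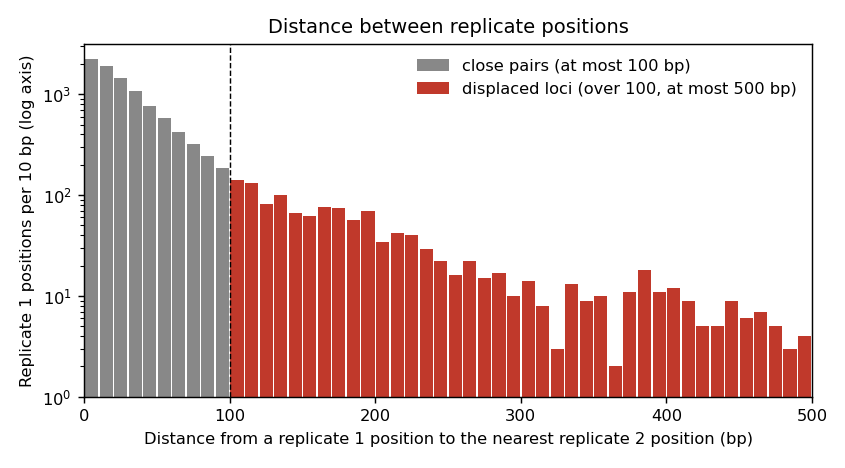
Number of replicate 1 positions (log axis) by distance to the nearest replicate 2 position in steps of 10 bp, with close pairs in grey and displaced loci in red. The counts fall smoothly across the dashed limit at 100 bp, and the displaced loci have a median of 166 bp.

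Most displaced loci were pairs in both directions. At 1167 of the 1272 (91.7%), the replicate 1 position was also the nearest to its replicate 2 partner, whereas at 69 (5.42%) the partner lay within 100 bp of another replicate 1 position. A partner was shared by 70 displaced loci (5.50%), so the members had 1237 distinct partners. Within a single list, the smallest gap between positions was 281 bp in replicate 1 and 257 bp in replicate 2, and 134 and 81 gaps were at most 500 bp. Neither list thus held a second position as near as the median displacement of 166 bp. Another displaced locus lay within 10 kb of 9.91% of displaced loci, against 3.13% of unpartnered positions with a displaced locus that near. A close pair lay within 10 kb of 23.7 and 17.9%. The 70 loci that share a partner have another displaced locus that near by the rule alone. The 69 whose partner lay within 100 bp of another replicate 1 position likewise have a close pair that near. Unpartnered positions cannot meet either condition, so these shares are a description.

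A few displaced loci lay in very dense groups. Of all 100-kb windows, 3 held 4 or more displaced loci, 20 in all, and these windows stand out by their annotation. On chromosome 17, the window from 43200 to 43300 kb held 6, all within 258 bp of a gene of U2 small nuclear RNA, of which GENCODE lists 12 there. On chromosome 21, the windows from 8200 to 8300 kb and from 8400 to 8500 kb held 8 and 6, and the annotated genes of ribosomal RNA there, 3 in number, lay 2013 to 34760 bp from them. Of the 20 loci, 11 had 0 WGATAR within 300 bp. Results below are given without these windows where that changes them, a comparison added after the data were seen.

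Several GATA motifs were common at displaced loci, and within 300 bp their share could not be told apart from that at close pairs. Within 300 bp of the midpoint of both positions, 842 of 1272 displaced loci (66.2%, 95% interval 63.6 to 68.7%) and 6103 of 9145 close pairs (66.7%, 65.8 to 67.7%) held 2 or more WGATAR (odds ratio 0.976, 95% interval 0.862 to 1.10, Fisher's exact p = 0.703). The interval leaves room for a modest difference in either direction. Without the 3 dense windows the odds ratio within 300 bp was 1.02. In windows of 100 bp on each side, which do not reach positions over 200 bp apart, it was 0.611 over all loci (Fisher's exact p = 1.96e-13). Among all genome windows as long as 300 bp on each side, the share with 2 or more was 41.0%. In those with the GC content of the displaced loci it was 32.0%. Multiple matches were thus more frequent at displaced loci than in the genome at large, as they were at close pairs.

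The counts of matches differed mainly at 0. The median was 2 in both classes, and the mean was 2.45 at displaced loci and 2.29 at close pairs. The means include a few loci with very many matches, up to 56 at displaced loci and 85 at close pairs. Of the displaced loci, 146 (11.5%) had 0 matches against 7.72% of close pairs, so that having at least 1 was less frequent (88.5% against 92.3%, odds ratio 0.645, 95% interval 0.534 to 0.779, Fisher's exact p = 1.2e-05). Without the dense windows this odds ratio was 0.679 (Fisher's exact p = 1.5e-04). With AGATAA alone in place of WGATAR the odds ratio was 1.01 (Fisher's exact p = 0.900). At the upper end, 242 displaced loci (19.0%) had 4 or more against 16.5% of close pairs. A count of 3 or more was reached by 39.9% of displaced loci and 37.8% of close pairs, an odds ratio of 1.09 with a Fisher's exact p of 0.147.

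Tandem repeats of GATA were found at a few loci. Of the displaced loci, 9 (0.708%) held 4 or more tandem copies of GATA within 300 bp, against 21 close pairs (0.230%), an odds ratio of 3.10 (95% interval 1.41 to 6.77, Fisher's exact p = 0.00768). The highest counts at displaced loci were 56 matches at a locus 320.3 kb from the TSS of ZBED1 on chromosome X and 52 at a locus 109.4 kb from that of FNDC1 on chromosome 6. Both were such repeats. Leaving tandem repeats out, the odds ratio for 2 or more WGATAR was 0.969.

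**Figure D2:**
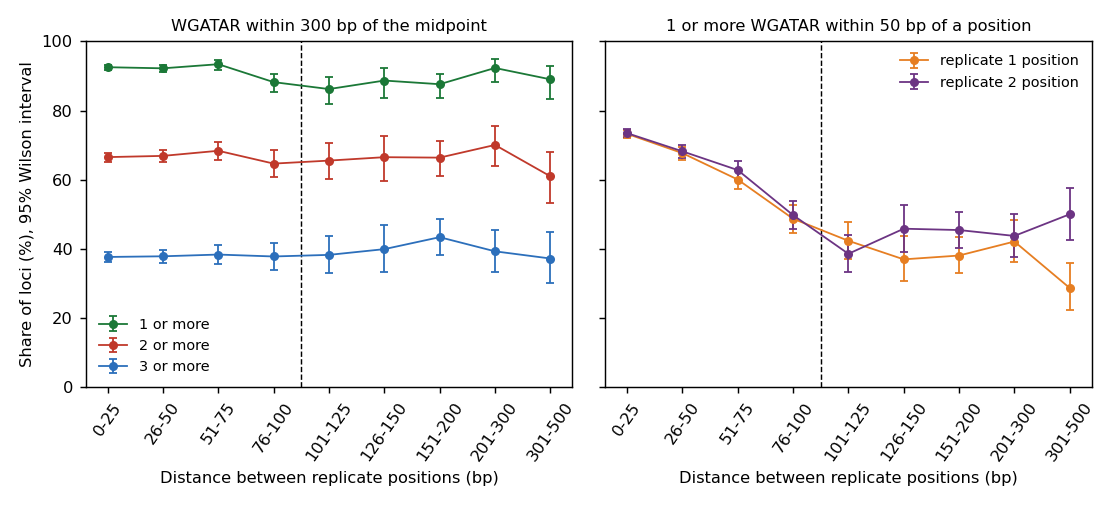
Left, share of loci (%, 95% Wilson interval) with 1, 2 or 3 or more WGATAR within 300 bp of the midpoint, by distance between the replicate positions in bp. Right, share with 1 or more WGATAR within 50 bp of each replicate's position; the dashed line marks the limit of 100 bp. The share with 2 or more stays between 61.0 and 70.0% in all bins. The share near the replicate 1 position falls from 73.3% at 0 to 25 bp to 48.7% over 75 and up to 100 bp. Beyond 100 bp the shares lie between 28.7 and 50.0% in either replicate without a steady fall.

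Matches lay farther from the positions at displaced loci than at close pairs. Within 50 bp of the position, a WGATAR was present at 490 displaced loci in replicate 1 (38.5%, 95% interval 35.9 to 41.2%) and at 560 in replicate 2 (44.0%, 41.3 to 46.8%). The same shares were 68.5 and 69.2% for close pairs and 56.2% for unpartnered positions, and 20.2% of all genome windows of that length held one. Both positions of displaced loci thus lay between the genome share and the share at close pairs. The nearest match was a median of 68.75 bp from the replicate 1 position and 56.5 bp from the replicate 2 position, against 26.5 bp for each position of close pairs. Where both positions share 1 nearest match, a displacement over 100 bp places at least 1 of them over 50 bp from it. Close pairs are free of this constraint, so part of these differences follows from the rule and they are a description. Moving the window 150 bp outward, away from the other position, gave 20.4 and 20.5% at displaced loci, close to the genome share.

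A steady decline with distance was seen within the close pairs only. The share of replicate 1 positions with a WGATAR within 50 bp was 73.3% at 0 to 25 bp, 67.7% over 25 and up to 50 bp, 60.0% up to 75 bp and 48.7% up to 100 bp. Among displaced loci it was 42.3% over 100 and up to 125 bp, 36.9% up to 150 bp and 38.1% up to 200 bp. It was then 42.1% up to 300 bp and 28.7% over 300 bp. The replicate 2 positions of the same bins had 38.6, 45.8, 45.4, 43.7 and 50.0%. Over all displaced loci, a match at the replicate 2 position alone was more frequent than one at the replicate 1 position alone (376 against 306 loci, exact McNemar p = 0.00819). With replicate 2 as the starting list the direction was the same and the ratio of such loci was 0.877 (exact McNemar p = 0.0971), so this difference did not pass the threshold of 0.05 from both sides.

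A match at each of the positions, the layout of the SPRY2 and TBX3 loci, was the least frequent arrangement. It was found at 184 of 1272 displaced loci (14.5%, 95% interval 12.6 to 16.5%), a match at one position only at 306 (24.1%) for replicate 1 and 376 (29.6%) for replicate 2, and no match at either at 406 (31.9%). The windows of 50 bp on each side cannot overlap at these distances. If matches at the positions were independent, 216 loci would have had both, and the association was negative (odds ratio 0.649, 95% interval 0.516 to 0.818, Fisher's exact p = 2.5e-04). The rule builds in part of this, because a single match cannot lie within 50 bp of both positions when these are over 100 bp apart. At 284 loci (22.3%) there was 1 match within 300 bp of the midpoint, so these could not have both. The test cannot separate this from the placement of matches, and no conclusion is drawn from it. Where the replicate 1 position had a match, 37.6% of the replicate 2 positions had one, against 48.1% where it had none. The share with both varied little with displacement, from 13.8 to 15.6% across the distance ranges. For the AGATAA form alone, 45 loci (3.54%) had it at both positions.

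**Figure D3:**
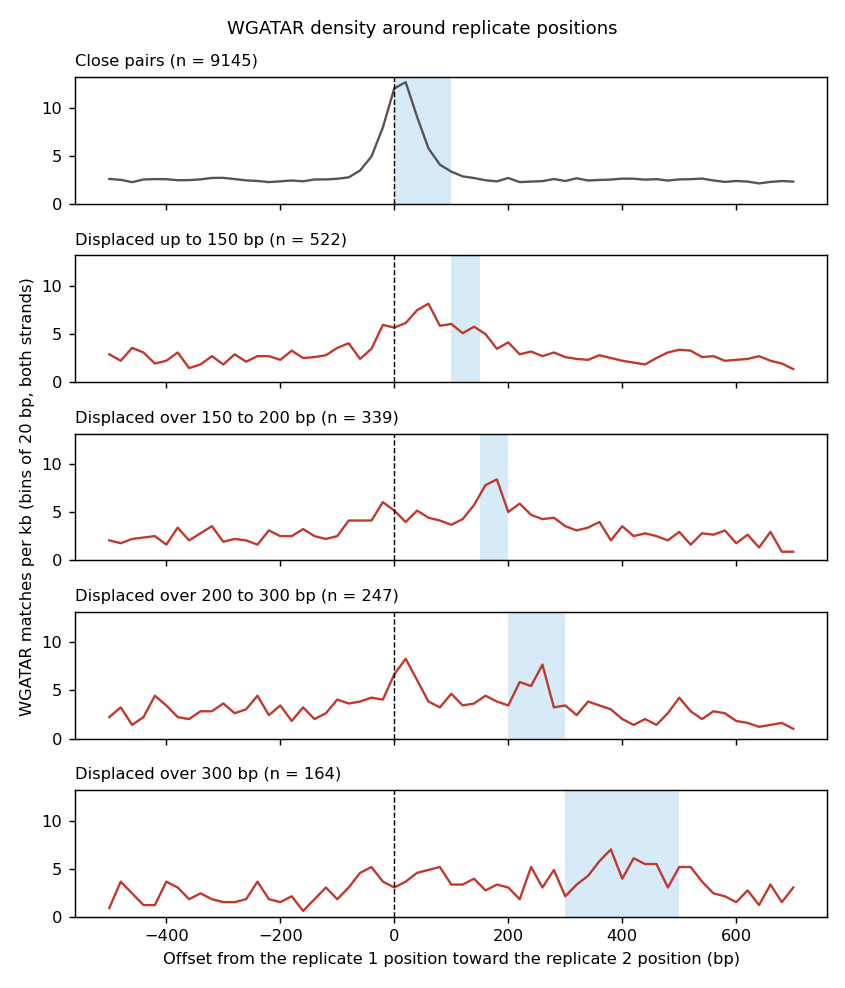
WGATAR matches per kb in steps of 20 bp, both strands, by offset in bp from the replicate 1 position (dashed line) toward the replicate 2 position (blue band), for close pairs and 4 ranges of displacement. Close pairs have a single peak, and loci displaced over 150 to 200 bp and over 200 to 300 bp have a rise near each position, with 8.41 matches per kb at 180 bp and 7.69 at 260 bp.

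The density of matches along the loci was averaged in steps of 20 bp, by range of displacement. In loci displaced over 150 to 200 bp, the density was 6.05 matches per kb at 20 bp before the replicate 1 position and 8.41 at 180 bp toward the replicate 2 position, with 4.42 at 60 bp between them. In loci displaced up to 150 bp the highest value, 8.14, lay at 60 bp, between the positions. In loci displaced over 300 bp the density was 3.05 at the replicate 1 position. It was 5.18 at 40 bp before and at 80 bp after that position, and highest at 380 bp, with 7.01. Among the 411 loci displaced by more than 200 bp, a match within 50 bp was present at 28.5% of midpoints, at 36.7% of replicate 1 positions and at 46.2% of replicate 2 positions. These are averages over loci, most of which had a match at only one of the positions or at neither.

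For each displaced locus the match nearest to the replicate 1 position was compared with that nearest to the replicate 2 position. They were different matches at 691 loci (54.3%) and the same match at 507 (39.9%), and 74 (5.82%) had none within 600 bp. In close pairs they differed at 13.9% and were the same at 83.0%, but a longer displacement makes different matches more likely by itself, so this is given without a test. At the 184 loci with a match at both positions, the 2 nearest matches were a median of 165 bp apart, for a median displacement of 163 bp. The difference between these distances had a median of 23.75 bp, and the windows allow at most about 100 bp. The pair of matches lay on the same strand at 94 loci (51.1%), faced each other at 53 (28.8%) and faced apart at 37 (20.1%).

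The letters of the matches are given as shares. At the loci with a match at both positions, the nearest match was AGATAA at 45.7% of replicate 1 and 46.2% of replicate 2 positions, against 54.0% at the midpoint of close pairs. AGATAG made up 20.1 and 18.5% against 13.9%, and TGATAG 9.24 and 10.3% against 5.63%. TGATAA was at 46 of the 184 positions in each replicate, and at 26.4% of close pairs. No test of these shares was made.

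In windows centred on the midpoint, the outermost matches were farther apart at displaced loci that had several. Among loci with 2 or more WGATAR, the outermost ones were over 100 bp apart at 701 of 842 displaced loci (83.3%) and at 4788 of 6103 close pairs (78.5%), an odds ratio of 1.37 (95% interval 1.13 to 1.65, Fisher's exact p = 0.00114). This comparison was added after the data were seen. Its limit of 100 bp is also the lower limit of the rule, and the window is centred between the positions. The selection may thus favour displaced loci here, and the test cannot separate this from a trait of the loci. Counted over all loci, with or without several matches, 55.1% of displaced loci and 52.4% of close pairs met this, an odds ratio of 1.12 (Fisher's exact p = 0.0675), and in windows centred on the replicate 1 position the odds ratio was 1.01. Pooled over quintiles of GC content (Mantel-Haenszel), the ratio around the midpoint was 1.25 (95% interval 1.10 to 1.41), which passed. Against unpartnered positions, with windows around the replicate 1 position only, 64.6% of displaced and 63.8% of unpartnered loci held 2 or more matches (odds ratio 1.04, 95% interval 0.918 to 1.18, Fisher's exact p = 0.572). Other settings gave calls in opposite directions, 0.671 in windows of 100 bp (Fisher's exact p = 1.34e-08) and 1.25 pooled over GC quintiles (95% interval 1.10 to 1.43).

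Recognition sequences of other proteins were compared in the same windows of 300 bp on each side of the midpoint. Of 13 motifs, 2 were higher at displaced loci after Benjamini-Hochberg adjustment (15.4% of the panel) and 1, WGATAR, was lower (7.69%). The GC box GGGCGG, bound by SP and KLF factors, was present at 16.5% of displaced loci and 13.5% of close pairs (odds ratio 1.27, adjusted Fisher's exact p = 0.0275). It was at 7.51% of all genome windows, 11.8% of those with the GC content of the displaced loci and 10.1% of those with that of close pairs. The GC-rich SMAD element GGCGCC was present at 7.08 and 5.24% (odds ratio 1.38, adjusted Fisher's exact p = 0.0363). Its genome share was 4.18% over all windows, 6.49% at the GC content of displaced loci and 5.69% at that of close pairs. In windows of 100 bp on each side neither passed (adjusted Fisher's exact p = 0.141 and 0.450), and in reciprocal pairs the GC box passed (0.0446) and GGCGCC did not (0.0585). Without the 3 dense windows neither passed either, with adjusted Fisher's exact p = 0.163 for each, and the shares at displaced loci were 15.5 and 6.47%. The median GC content was 43.8% at displaced loci and 42.9% at close pairs, and its part in these differences was not tested.

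The other motifs did not pass the threshold. The POU octamer ATGCAAAT, bound by OCT4, was at 10.5% of displaced loci and 9.21% of close pairs, and the SMAD element GTCTG at 71.2 and 69.7%. The E-box CACCTG was at 37.8 and 34.6% (adjusted Fisher's exact p = 0.0841), and the AP-2 sequence GCCNNNGGC, which TFAP2 factors bind, at 12.7 and 11.7%. The AP-1 sequence, TGACTCA or TGAGTCA, was at 11.0 and 12.4% (adjusted Fisher's exact p = 0.292). In windows of 100 bp on each side of the midpoint its odds ratio was 0.584 (adjusted Fisher's exact p = 0.00347), beside WGATAR at 0.352. Those windows reach both positions of every close pair but do not reach positions over 200 bp apart. They thus do not compare the classes at the positions themselves. The T-box sequence TCACACCT was at 3.14 and 2.56%, the TEAD sequence GGAATG at 38.6 and 39.3%, and the SOX sequence ACAAWGG, in which W is A or T, at 28.3 and 26.7%. The reversed letters of the GATA motif, RATAGW, served as a control and were at 67.5 and 66.5%, against 68.1% of all genome windows and 59.3% of those with the GC content of the displaced loci. The CTCF motif was at 0.708 and 1.19%. Among genome windows of the same length, WGATAR was in 72.1% of all and 64.5% of those with that GC content, ATGCAAAT in 6.04 and 4.64%, GTCTG in 61.8 and 66.4%, CACCTG in 36.0 and 45.5% and GCCNNNGGC in 8.39 and 12.3%. In the same order, the T-box sequence was in 5.38 and 6.83%, the TEAD sequence in 29.1 and 30.1%, the SOX sequence in 19.4 and 18.7%, the AP-1 sequence in 8.83 and 9.41% and the CTCF motif in 0.219 and 0.311%. Each motif names a family of proteins, and a match is a description of the sequence only.

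**Figure D4:**
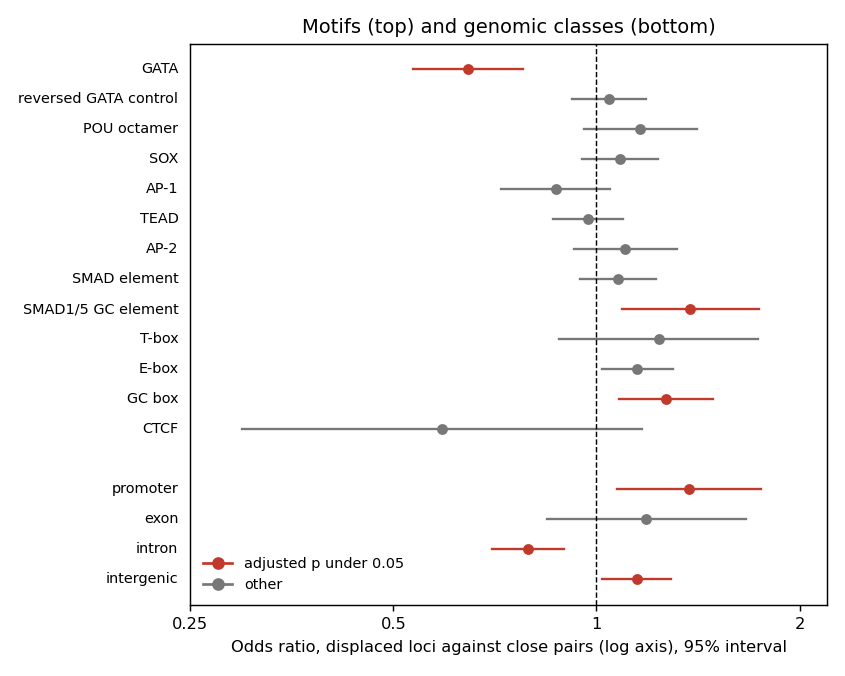
Odds ratio (log axis, 95% interval) of displaced loci against close pairs for 13 motifs within 300 bp of the midpoint and for 4 genomic classes, in red where the adjusted p was under 0.05. GATA at 0.645 and introns at 0.791 lie below 1, and the GC box, the GC-rich SMAD element, promoters and intergenic sequence lie above it.

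Displaced loci lay more often in promoters and intergenic sequence and less often in introns than close pairs. Promoters, taken as 1 kb to either side of the start of a protein-coding gene, held 81 displaced loci (6.37%) and 4.72% of close pairs (odds ratio 1.37, 95% interval 1.07 to 1.75, adjusted Fisher's exact p = 0.0305). Unpartnered positions had 1.78%. Introns held 35.8 and 41.3% (odds ratio 0.791, adjusted Fisher's exact p = 6.3e-04), and intergenic sequence 54.7 and 51.3% (odds ratio 1.15, adjusted Fisher's exact p = 0.0305). The promoter and intergenic calls were lost in reciprocal pairs, at adjusted Fisher's exact p of 0.0804 and 0.0544, and with promoters of 5 kb, at 0.0551 and 0.179. The median distance to a TSS was 62.3 kb for displaced loci and 72.6 kb for close pairs.

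Of the 4 genomic classes, promoters had the highest share of displaced loci without a GATA motif. Of the 81, 37.0% had 0 WGATAR within 300 bp, against 11.2% of displaced loci in intergenic sequence and 7.47% of those in introns. A match at both positions was present at 1.23% of promoter loci, against 15.9% in intergenic sequence and 14.5% in introns. Their median GC content was 52.8%, against 43.2 and 43.3%. Close pairs in promoters had 0 WGATAR at 22.2%, and their median GC content was 54.5%. The difference between the classes was not tested.

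Developmental genes with a displaced locus within 50 kb of the TSS were counted over 7 lists of 131 genes in all. Of these, 32 (24.4%) had one, against 911 of 20007 protein-coding genes (4.55%). Close pairs lay as near to 71 of the listed genes (54.2%), against 27.2% of all protein-coding genes. Both kinds were found at 26 of the 32 listed genes, against 432 of the 911 protein-coding genes. The lists were chosen with earlier results of these data known, so the counts are a description. A displaced locus was thus usually not the only GATA3 position near such a gene.

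The lists differed in their counts. None of 11 genes for GATA factors and cofactors had a displaced locus, although 6 had a close pair, so no displaced locus lay within 50 kb of GATA3 itself. Among BMP ligands, receptors and SMADs, 3 of 15 had one, BMP4, GDF6 and the receptor gene ACVR2A. Among BMP targets and antagonists it was 7 of 19, ID1, ID2 and ID3 for inhibitors of basic helix-loop-helix factors, the antagonists BAMBI and NOG, and the transcription factors DLX5 and HES1. The mesoderm list had 7 of 24, EOMES, TBX3, HAND2, FOXC1, TWIST1, CDX2 and MEIS2, all transcription factors. Trophoblast and amnion genes had 3 of 20, TFAP2A, GABRP and IGFBP3. Pluripotency genes had 5 of 18, the RNA-binding protein gene LIN28A, OTX2, the NODAL inhibitors LEFTY1 and LEFTY2, and FGF2. WNT and FGF signalling had 7 of 28, the ligand gene WNT3, AXIN2, TCF7L1, TCF7L2, DUSP6, SPRY2 and SPRY4.

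Within 10 kb of the TSS, 23 displaced loci lay near 20 of the listed genes. Of the 23, 4 had a WGATAR within 50 bp of both positions, 5 at replicate 1 only, 3 at replicate 2 only and 11 at neither. Within 300 bp of the midpoint, 11 had 2 or more and 6 had none. Their GC content ran from 40.9 to 67.4% with a median of 55.2%. Loci near these genes thus held both of the extremes described above.

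**Figure D5:**
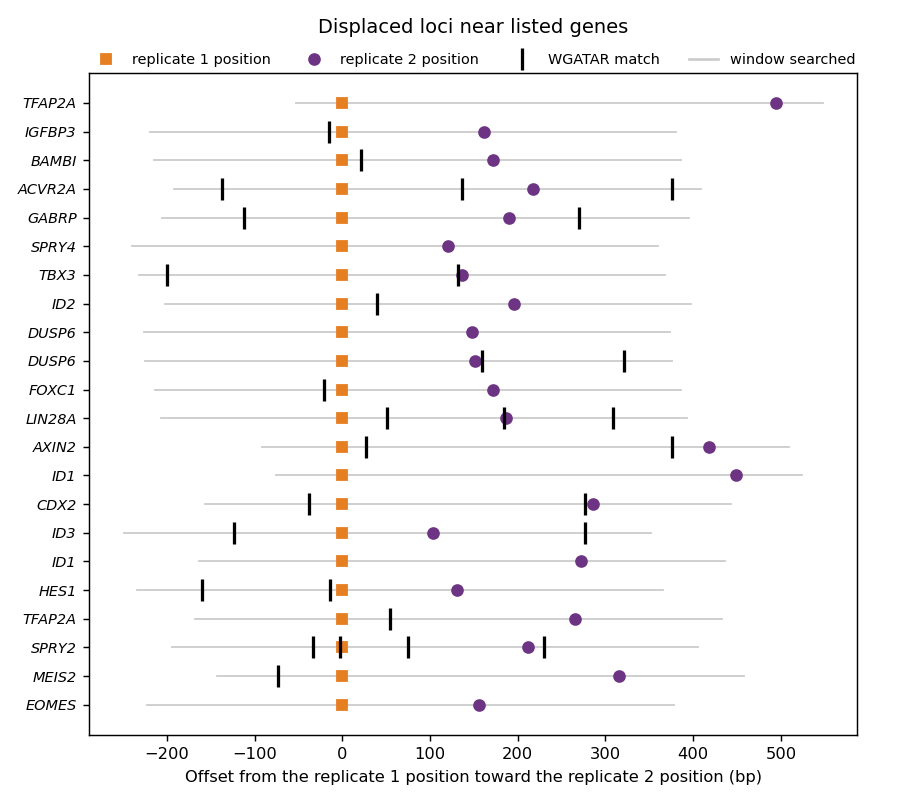
Of the 23 displaced loci within 10 kb of a listed TSS, 22 are drawn, nearest at the top, with the replicate 1 position at 0 and the replicate 2 position and each WGATAR within 300 bp of the midpoint by offset in bp. At AXIN2, CDX2 and SPRY2 a match lies within 50 bp of both positions, and 6 loci have no match in the window.

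Among the BMP pathway genes, the loci at BAMBI and ID2 had 1 match. At positions over 100 bp apart, a single match cannot lie within 50 bp of both. The locus at BAMBI, a pseudoreceptor that dampens BMP signalling, lay on chromosome 10 at 28676542.5 in replicate 1 and 28676714 in replicate 2, 0.882 kb upstream of the TSS. Its single match was 21 bp from the replicate 1 position and 150.5 bp from the replicate 2 position. At ID2, 1.74 kb upstream of the TSS on chromosome 2, the positions were 8677200 and 8677004, and the single match was 39.5 bp from the replicate 1 position. The replicate 1 position was the nearer to the match at both genes. ACVR2A had 3 matches around positions 217.5 bp apart in its intron 1, none within 50 bp of a position. HES1, a target of several signalling pathways, had a match 14.5 bp from its replicate 1 position and 145.5 bp from its replicate 2 position. ID3 had 2 matches, at 123 bp or more from its positions, which were 103 bp apart.

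ID1, a direct BMP target, had 2 displaced loci within 10 kb that shared 1 replicate 2 position. On chromosome 20, the replicate 1 positions were 31607988 and 31608709.5, and the replicate 2 position between them was 31608437, at distances of 449 and 272.5 bp. Neither locus had a WGATAR within 300 bp of the midpoint. The loci lay 2.93 and 3.29 kb downstream of the TSS in intergenic sequence. Replicate 1 thus listed a pair of positions where replicate 2 listed one.

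Among mesoderm genes, CDX2 had its displaced locus in intron 1, at 27966425 and 27966139 on chromosome 13, 286 bp apart, with a match 37.5 bp from the replicate 1 and 9.5 bp from the replicate 2 position. TBX3 had a second locus 1.34 kb upstream of its TSS, with a match 4.5 bp from the replicate 2 position (114685449) and 131.5 bp from the replicate 1 position (114685585). FOXC1, 2.05 kb upstream of its TSS, was the opposite, with a match 20.5 bp from the replicate 1 and 192.5 bp from the replicate 2 position. EOMES, a T-box regulator of mesendoderm, had none within 300 bp, and its nearest was 411.5 bp from the replicate 1 position. At MEIS2 a single match lay 73.5 bp from the replicate 1 position, on the side away from replicate 2.

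Among the remaining listed genes, IGFBP3, which encodes a binding protein of insulin-like growth factors, had its locus 0.247 kb upstream of the TSS on chromosome 7. The single match was 15.5 bp from the replicate 1 position (45922202) and 177.5 bp from the replicate 2 position (45922040). GABRP, an amnion-expressed receptor subunit gene, had 2 matches, at 112.5 and 79.5 bp from its positions. LIN28A, in intron 2, had a match 2.5 bp from its replicate 2 position (26413175) and another 50.5 bp from its replicate 1 position (26412988). AXIN2, a feedback inhibitor of WNT signalling, had positions 418 bp apart in intron 1, with matches 27.5 and 42.5 bp away. Another replicate 1 position lay nearer to this replicate 2 position. DUSP6, a phosphatase that limits FGF signalling through ERK, had a locus in intron 2 with a match 8.5 bp from the replicate 2 position and a locus 1.76 kb upstream of the TSS with none. SPRY4 had none within 300 bp, and its locus had a GC content of 59.5%. A second TFAP2A locus, 3.80 kb upstream of the TSS, had 1 match, 54.5 bp from the replicate 1 position.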

How the data were processed

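Per the study's methods, the authors trimmed reads with cutadapt and used bowtie for alignment to hg38. Duplicates (Picard), reads with several alignments and ENCODE blacklist regions were removed. MACS2 called the peaks of a replicate with the matching input as control. The replicates were therefore called separately, and repeats that are hard to map may be underrepresented. The deposited files give 1 position per peak and a gene name. How a peak was reduced to a position, and whether bases count from 0 or 1, is not given in the sources used here, so a printed position, copied as the authors deposited it, may be off by 1 bp or more. Some fall between bases (1.56% in replicate 1 and 2.15% in replicate 2). Positions listed more than once were counted once, which left 18538 and 12865, and those on scaffolds (82 and 83) were left out of the report.

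Distances, hg38 sequence and GENCODE release 44 were read with pysam 0.24.0, and tests used scipy 1.17.1 and statsmodels 0.14.6 (numpy 2.4.6, Python 3.11.15). Motifs were searched on both strands, overlapping matches included. Genome shares are over all non-overlapping windows of the same length on the 24 chromosomes. Shares have Wilson 95% intervals, odds ratios Woolf 95% intervals, and tests were two-sided Fisher's exact or exact McNemar tests, with Benjamini-Hochberg adjustment over the 13 motifs and over the 4 genomic classes and a threshold of 0.05. Odds ratios pooled over GC quintiles are Mantel-Haenszel estimates. Intervals cover counting error over positions only, and loci that share a partner or lie near each other are not independent. The pairing, motif search and tests were checked on simulated data.

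The stretches of 2 of the 4 loci chosen for printing, and the match positions there, are not reported here. Members and gene lists were chosen with earlier results of these data known. Genes named are listed genes with a displaced locus within 10 kb of the TSS, up to 25 loci, nearest first. Loci near ZBED1 and FNDC1 and the dense windows were named after their values were seen. Alternatives covered window length, motif form, number of matches, GC content, reciprocal pairs and the starting replicate. A test of soft-masked repeats was not run, because the reference used here is written in capitals throughout.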

Additional observations from a re-analysis of the deposited data

Results flagged for a closer look

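Positions on scaffolds outside the 24 chromosomes were not used in any comparison. Of 82 such positions in replicate 1, 18 lay over 100 and at most 500 bp from a replicate 2 position, on 5 scaffolds. They are given because the share on the chromosomes was 6.89%, and no control sample was analysed for them. The difference was not tested.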

How the results depend on the processing

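The odds ratio for 2 or more WGATAR (0.976) changed direction without passing the threshold with AGATAA (1.06), with 3 or more (1.09), with matches within 10 bp counted once (1.01), pooled over GC quintiles (1.08), for loci displaced up to 250 bp (1.03) and without the dense windows (1.02). In windows of 100 bp, which do not reach positions over 200 bp apart, it was 0.611 and passed. For 1 or more, AGATAA gave 1.01. Against unpartnered positions, windows of 100 and 500 bp gave 0.671 and 0.950, and GC quintiles 1.25, which passed. The ratio of replicate 1 to replicate 2 loci with a match was 0.877 from replicate 2 and no longer passed. Promoters of 5 kb and reciprocal pairs gave odds ratios of 1.21 and 1.29 for promoters and 1.09 and 1.15 for intergenic sequence, which no longer passed. Without the dense windows 1 of 13 motifs passed, against 3, and 2 passed in windows of 100 bp (WGATAR and AP-1) and in reciprocal pairs (WGATAR and the GC box). Pooled over GC quintiles, the odds ratio for matches over 100 bp apart was 1.25 and passed. A lower limit of 50 bp gave 3015 loci, and 10 kb gave 20 listed genes. The cause of these changes was not tested. The other 38 values kept direction and side of the threshold or, for counts, stayed within 1.5 times, which includes both of these counts of 2. The dense windows and the comparisons of matches over 100 bp apart were added after the data were seen. Leaving out a replicate was not possible, because the rule needs both, and the soft-masked alternatives were not run. No paired analysis was possible because input positions were not analysed and the tests compare regions. Without peak heights or depth, a weak peak could not be told from a strong one.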

Other observations

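Displaced loci were unevenly spread over chromosomes. Chromosome 21 had 33 among its 256 replicate 1 positions (12.9%), and 14 of the 33 lay in the 2 dense windows there. These 14 were 2013 to 34760 bp from annotated ribosomal RNA genes. CCDC200 on chromosome 17 had 6 displaced loci within 50 kb of its TSS, the most of any protein-coding gene, and all 6 were those beside U2 small nuclear RNA genes. ABCG2, a drug efflux transporter gene, and GULP1 had 3 each, as did ID1 and TFAP2A.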
